A study of Homo sapiens with 16 samples.

Results

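Gene expression with CS1 at 100 nM was set directly against gene expression with CS2 at 500 nM in NOMO-1 cells, a human acute monocytic leukaemia line, after 72 h of treatment. The 6 libraries compared, 3 with CS1 and 3 with CS2, are all those the labels give to either compound, of 16 in all. The 4 libraries with DMSO, the solvent, place each difference relative to solvent. A separate experiment in the same line gave 3 libraries with shFTO, a hairpin against FTO, and 3 with shNS, its control hairpin, where 1 week of puromycin at 1 µg/ml kept the infected cells. The series presents both compounds as inhibitors of FTO, an enzyme that removes the m6A mark from RNA. Each compound was used at 1 dose, and the doses differ, so that compound and dose cannot be told apart in any value given here. The design text gives at least 3 biological replicates per group of this 1 line, and does not say whether these were separate cultures.

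FTO takes the methyl group off N6-methyladenosine, a mark that affects the splicing, decay and translation of mRNA, and it is known in acute myeloid leukaemia for holding up transcripts such as MYC. From general knowledge of the published study, not from the labels, CS1 is bisantrene, known as a DNA-intercalating inhibitor of topoisomerase II, and CS2 is brequinar, known as an inhibitor of DHODH, the mitochondrial enzyme of pyrimidine synthesis. These identities were not checked here. Monocytic leukaemia cells that mature or are stressed are known to lower MYC and ribosome production and to raise granule proteins, cytokines and inhibitors of the cell cycle, and those gene groups order the account below.

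The values are TPM (transcript abundances scaled to 1 fixed total in each library), and every difference is CS1 minus CS2 on log2(TPM + 1), which understates the change of low genes. Within a compound the libraries correlated across genes at 0.9907 to 0.9921 for CS1 and at 0.9893 to 0.9919 for CS2, against 0.9547 to 0.9631 for the 9 pairs of 1 CS1 and 1 CS2 library. FTO itself (chr16:53701692-54158512, GRCh38) had 35.0, 35.9 and 31.3 TPM with CS1 and 35.3, 34.0 and 33.3 TPM with CS2, against 33.3, 33.1, 29.6 and 30.7 TPM with DMSO. The groups overlapped, and the difference was -0.01 with a 95% interval of -0.13 to 0.12 (limma, adjusted p = 0.943). Of 12 markers of monocytic leukaemia cells 10 could be tested, while MPO and CD14 were too low for the test. All 12 summed to 1937 to 2135 TPM with CS1, 2268 to 2368 TPM with CS2 and 978.3 to 1018 TPM with DMSO. Of 13 erythroid and megakaryocyte markers 2 could be tested, and of 12 epithelial and fibroblast markers 4, and each of those lists summed to at most 11.96 TPM in any CS1, CS2 or DMSO library. Of 12 lymphocyte markers 6 could be tested. The 12 together summed to 470.4 to 507.6 TPM with CS1, 443.9 to 462.3 TPM with CS2 and 274.8 to 290.8 TPM with DMSO. Nearly all of that sum was NKG7, a granule protein that averaged 470.8 TPM with CS1, 432.6 TPM with CS2 and 266.4 TPM with DMSO.

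Of 14951 genes with at least 1 TPM in at least 3 of the 16 libraries, 3916 (26.2%) were higher with CS1 than with CS2 and 6047 (40.4%) were lower (limma, Benjamini-Hochberg adjusted p under 0.05). Of all tested genes, 590 (3.95%) were higher with CS1 by at least 2-fold and 568 (3.80%) were lower by at least 2-fold. Counts of list members below are to be read beside the 26.2% of all tested genes that were higher and the 40.4% that were lower. In RNA of whole cultures, more cells of a state and more RNA per cell cannot be told apart. The median difference over all tested genes was -0.11, and dividing each library by its 75th percentile turned the split into 4805 higher and 4809 lower, so list medians are given below less that all-gene median. At the other end, the 95% interval lay within 0.5 of zero for 7009 genes, 46.9% of those tested.

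**Figure D1:**
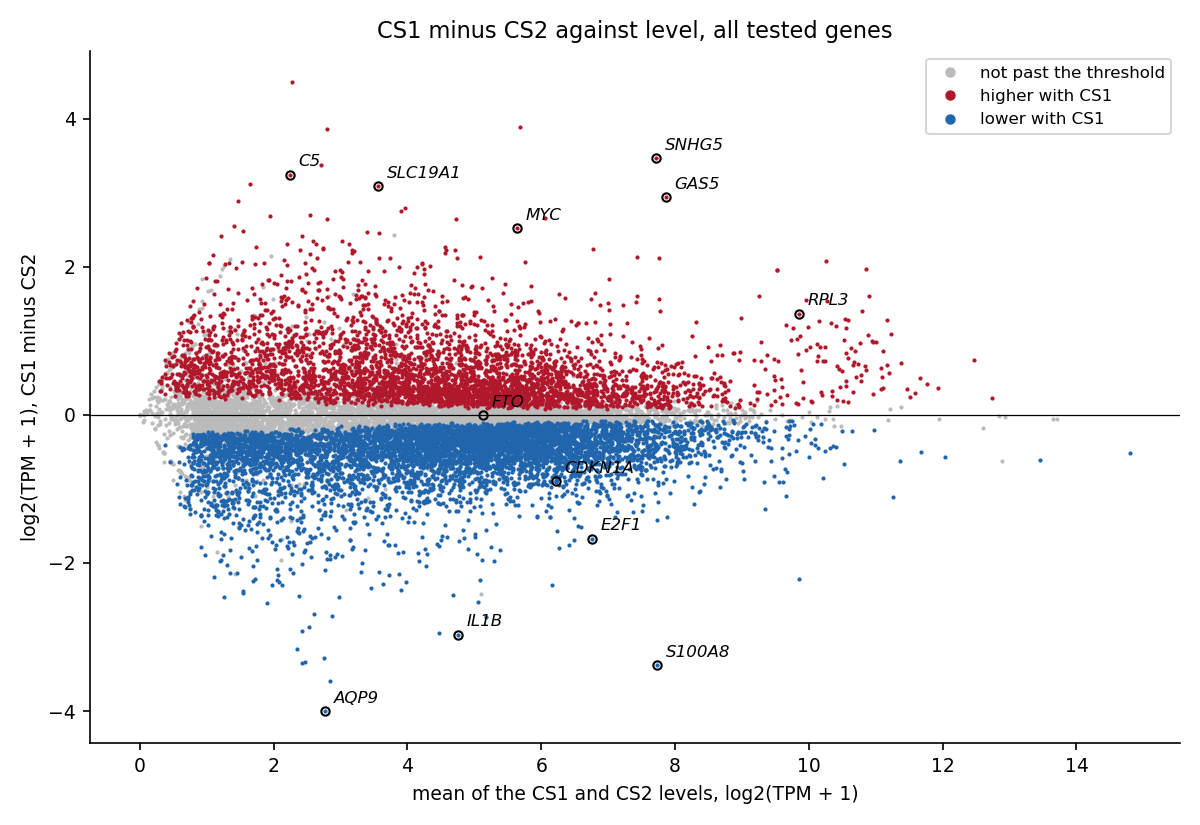
Each point is 1 of 14951 tested genes: the horizontal axis is its mean level over the CS1 and CS2 groups and the vertical axis the difference CS1 minus CS2, both on log2(TPM + 1). Red genes were higher and blue genes lower with CS1 (limma, adjusted p under 0.05), grey genes did not pass, and ringed genes are named: SNHG5 and GAS5 lie far above zero at high level, S100A8 far below, and FTO on the zero line.

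Among 44 gene lists, the 5 medians farthest above that of all genes were those of protein synthesis. Against DMSO, and less the all-gene median, these 5 medians ran from -0.35 to -0.04 with CS1 and from -1.32 to -0.65 with CS2, so that none lay above the shift of all genes from solvent with either compound. SNHG5 (chr6:85660950-85678748, GRCh38), a noncoding RNA that carries small nucleolar RNAs in its introns, had 692.6, 697.3 and 705.8 TPM with CS1 and 61.0, 58.6 and 67.7 TPM with CS2, against 604.96 to 692.6 TPM with DMSO. It was 11.1-fold higher with CS1 (log2 difference 3.47, SE 0.0636, adjusted p = 2.96e-14), and its lowest CS1 library, at 692.63 TPM, lay level with the highest DMSO library, at 692.56 TPM. GAS5 (chr1:173863900-173868882), a host of the same kind, had 667.9, 661.7 and 606.9 TPM with CS1 and 80.9, 81.9 and 86.6 TPM with CS2, a difference of 2.94 (SE 0.0709, adjusted p = 4.6e-13). Its DMSO libraries, at 321.8 to 362.8 TPM, lay between the 2 compounds, so that GAS5 was above solvent with CS1 and below it with CS2. ZFAS1, another host gene and antisense to ZNFX1, likewise averaged 237 ± 5.95 TPM with CS1, 49.3 ± 2.23 TPM with CS2 (SD, n = 3 each) and 136 ± 10.5 TPM with DMSO (SD, n = 4); the counting's use of strand is not given in the sources used here.

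Of 13 tested snoRNA host genes, 12 were higher with CS1, 0 were lower, and SNHG1 did not pass at 0.06. Their median was 1.11 above the all-gene median, and the 13 genes summed to 2697 to 2734 TPM with CS1, 985.1 to 1011 TPM with CS2 and 2130 to 2390 TPM with DMSO. The small nucleolar RNAs, which guide modification of ribosomal RNA, were looked at after values were seen. Of 233 tested entries 69 (29.6%) were higher with CS1, a share near the 26.2% of all genes, 9 (3.86%) were lower, against 40.4% of all genes, and 155 did not pass. Their summed level was 8081 to 8831 TPM with CS1, 3858 to 5204 TPM with CS2 and 9867 to 10636 TPM with DMSO. SNORD59A had 13.9, 22.6 and 33.7 TPM with CS1, and with CS2 it was listed at 0 in 2 libraries and at 2.95 TPM in the other. In every CS2 library 37 of these entries were listed at 0, against 14 in every CS1 library and 7 in every DMSO library. Such entries are short, lie inside their host genes and come from RNA enriched for poly(A) tails, so host, assay and small RNA cannot be told apart in their TPM.

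Of the 77 cytosolic ribosomal protein genes, which encode the structural proteins of the ribosome, 76 were higher with CS1 than with CS2 and 0 were lower, with a median 0.88 above the all-gene median. RPL23 (chr17:38847865-38853843) had 2445, 2411 and 2661 TPM with CS1 and 581.3, 583.95 and 617.6 TPM with CS2, against 2712 to 3022 TPM with DMSO, a difference of 2.07 (SE 0.0475, adjusted p = 3.61e-13). RPL3 had 1439, 1453 and 1551 TPM with CS1 and 559.8, 576.9 and 585.8 TPM with CS2, and its DMSO libraries lay at 1764 to 1908 TPM. For both genes no CS1 library came near a CS2 library, but members of a list were named for their small adjusted p. Quantile normalization, which forces the libraries to 1 distribution and so presses on the most abundant genes, left 61 of the 77 higher and made 10 lower. Reads of these genes can fall on near-identical pseudogenes, so single values are uncertain.

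Together the ribosomal protein entries took 14.2 ± 0.592% of all TPM with CS1 and 8.38 ± 0.112% with CS2 (SD, n = 3 each), against 15.4 ± 0.739% with DMSO (SD, n = 4). The CS1 and CS2 libraries did not overlap; the exact two-sided permutation test gave p = 0.1, the smallest that 3 libraries against 3 can give. The 12 mitochondrial-like entries took 6.71 ± 0.196% with CS1 and 7.88 ± 0.151% with CS2 (SD, n = 3 each), again without overlap (exact permutation p = 0.1), against 8.15 ± 0.165% with DMSO (SD, n = 4). TPM are shares of a fixed total. The 75th percentile of the tested genes was 48.1 to 50.3 TPM with CS1, 51.5 to 53.9 TPM with CS2 and 44.1 to 45.1 TPM with DMSO, and the part of these shares in that was not tested. Rescaling the TPM to a common total without the ribosomal protein, ribosomal RNA and mitochondrial-like entries gave 4538 genes higher and 5091 lower with CS1.

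**Figure D2:**
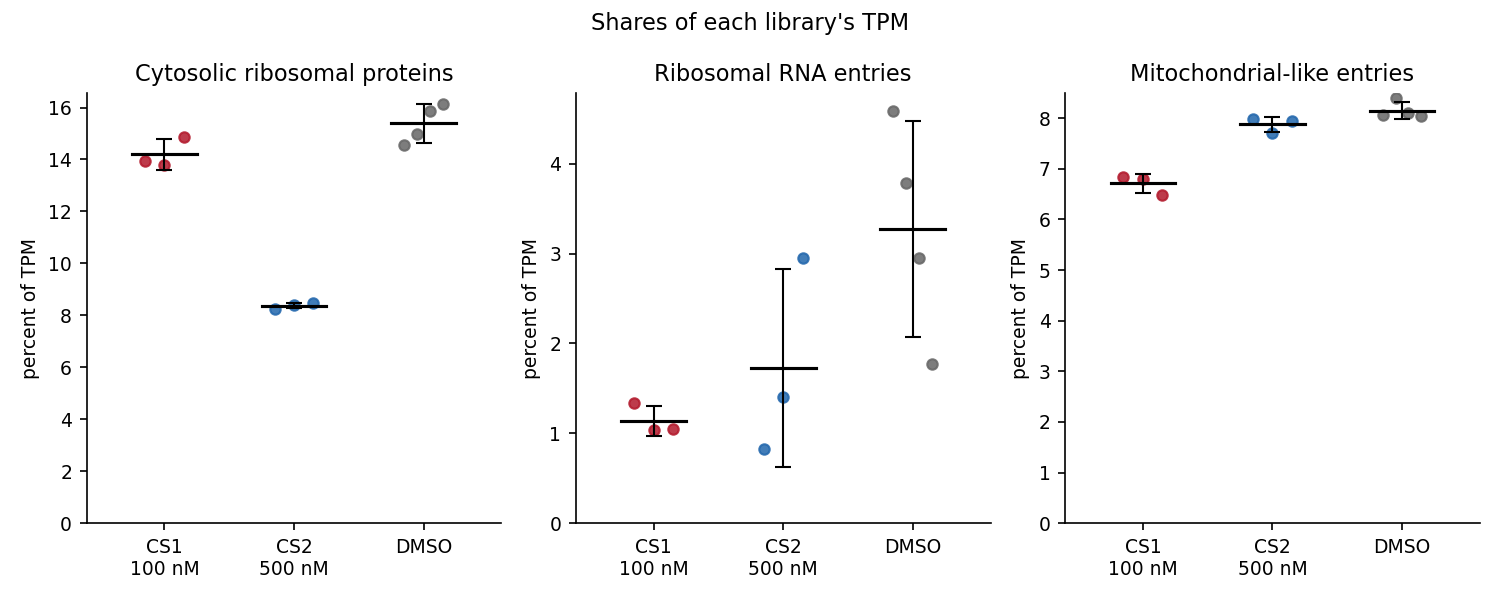
Percent of each library's TPM, on axes that start at 0, taken by 77 cytosolic ribosomal protein entries, 4 ribosomal RNA entries and 12 mitochondrial-like entries; points are libraries, bars the mean and whiskers 1 SD, for CS1 and CS2 (n = 3 each) and DMSO (n = 4). The ribosomal protein share with CS2 lies below that of CS1 and DMSO, the mitochondrial-like share with CS1 lies below that of CS2 and DMSO, and the ribosomal RNA share overlaps between the compounds.

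Translation factors were mostly higher with CS1, 27 of 32 tested, and 1 was lower, with a median 0.59 above the all-gene median. EEF1A1 (chr6:73515750-73523797), the elongation factor that brings aminoacyl-tRNA to the ribosome, had 3606, 3579 and 3773 TPM with CS1 and 920.3, 921.5 and 958.6 TPM with CS2, against 3380 to 3614 TPM with DMSO. The difference was 1.97 (SE 0.0392, adjusted p = 6.45e-14), and the CS1 libraries lay about where the DMSO libraries did. EIF3F, a subunit of initiation factor eIF3, differed by 1.24, EEF1D, an exchange factor for EEF1A, by 1.51 and EIF4B, a cofactor of the cap-bound helicase, by 0.99.

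Of 36 genes of the nucleolus and ribosome assembly, 33 were higher with CS1 and 0 were lower. NPM1, the abundant nucleolar chaperone, had 1914, 1888 and 2160.4 TPM with CS1 and 860.0, 834.3 and 825.3 TPM with CS2, against 2483 to 2766 TPM with DMSO. BOP1, needed to mature the large ribosomal subunit, differed by 1.77, its partner WDR12 by 0.82 and DKC1, the pseudouridine synthase of small nucleolar particles, by 0.71. Here both compounds lay under solvent in part: 24 of the 36 were lower with CS1 than with DMSO and 35 were lower with CS2 than with DMSO, where 14.3% and 24.6% of all tested genes were. Comparisons of the 2 compounds with DMSO share the DMSO libraries and are set side by side here only to place the values.

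The next list held aminoacyl-tRNA synthetases, which load tRNAs with amino acids, and the accessory proteins AIMP1, AIMP2 and EEF1E1. Of these 23 genes, 17 were higher with CS1 and 0 lower. FARSB had 107.7, 107.0 and 108.9 TPM with CS1 and 43.9, 45.3 and 43.6 TPM with CS2, against 108.4 to 112.6 TPM with DMSO, a difference of 1.27 (SE 0.0487, adjusted p = 2.11e-11). LARS differed by 0.87, YARS by 0.65 and GARS by 0.53. Against DMSO, FARSB, LARS, YARS and GARS differed by -0.03, 0.00, 0.20 and 0.00 with CS1 and by -1.30, -0.86, -0.45 and -0.52 with CS2. Over the list, 9 of 23 were higher and 3 lower with CS1 than with DMSO, where 37.5% and 14.3% of all tested genes were. With CS2, 4 were higher and 14 lower than with DMSO, where 49.5% and 24.6% of all tested genes were.

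Many mRNAs of the translation machinery begin with a pyrimidine run at the cap, the 5′ terminal oligopyrimidine or TOP sequence, through which their translation is known to be controlled. The starts below, from the RefSeq promoter table (GRCh38.p14), are examples from the lists just described. Each of them holds such a run, which other genes of the same lists lack, so they do not show how common it is. Each runs from 10 bases before the annotated start to 20 from it on, and capitals mark a C followed by at least 4 pyrimidines that begins within 5 bases of that start. RPL24 is at chr3:101686699-101686728 (minus strand), RPL41 at chr12:56116623-56116652 (plus), RPL3 at chr22:39319604-39319633 (minus), EEF1A1 at chr6:73521013-73521042 (minus), EIF3F at chr11:7987327-7987356 (plus), NPM1 at chr5:171387839-171387868 (plus), SNHG5 at chr6:85678714-85678743 (minus) and ZFAS1 at chr20:49278632-49278661 (plus).
RPL24: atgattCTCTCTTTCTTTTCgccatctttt
RPL41: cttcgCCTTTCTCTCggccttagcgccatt
RPL3: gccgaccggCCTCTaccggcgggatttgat
EEF1A1: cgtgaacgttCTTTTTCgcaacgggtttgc
EIF3F: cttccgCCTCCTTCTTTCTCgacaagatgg
NPM1: agcctgcgtCCTTTCCCTggtgtgattccg
SNHG5: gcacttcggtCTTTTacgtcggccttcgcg
ZFAS1: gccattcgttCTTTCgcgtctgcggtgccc

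Such a run stood at the start of 49 of 61 ribosomal protein genes with an entry in the table (80.3%), 12 of 23 translation factors (52.2%), 7 of 11 snoRNA host genes (63.6%) and 5 of 30 nucleolar genes (16.7%), against 22.5% of all 10894 tested genes with an entry. This rule was set after start sequences had been read, the SNHG5 and ZFAS1 starts among them. The rule searched first asked for a C and at least 5 pyrimidines anywhere within 10 bases of the start. Under it the shares were 73.8% of ribosomal protein genes, 43.5% of translation factors, 27.3% of snoRNA host genes and 17.0% of all. The share for the host genes therefore rests on the rule chosen. With the later rule the run was held by 25.7% of genes higher with CS1 and by 20.8% of genes lower with CS1.

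Without the ribosomal protein and translation factor lists, the 2393 genes with a run had a median difference of -0.07 and the 8417 without one -0.12. Within the ribosomal protein list the 49 genes with a run had a median of 0.73, and so did the 12 without one. The letters are a description of these windows and do not show which starts the cells used.

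MYC (chr8:127735434-127741434), the transcription factor known to drive ribosome production, had 109.1, 107.3 and 139.8 TPM with CS1 and 17.9, 19.2 and 22.1 TPM with CS2, against 280.3, 284.6, 307.2 and 316.7 TPM with DMSO. No groups overlapped: both compounds lay under solvent, CS2 the farther, and the difference was 2.52 (SE 0.145, adjusted p = 1.27e-09). Of 11 tested members of the MYC and MAX network, 6 were higher with CS1 and 5 lower. MXD1, which competes with MYC for MAX, was lower with CS1 than with CS2 by 0.60 on the log2 scale, at 14.0, 13.8 and 11.9 TPM against 21.1, 20.1 and 20.7 TPM, with 5.66 to 6.01 TPM in DMSO libraries. MXD3 averaged 19.5 ± 0.532 TPM with CS1 and 30.98 ± 0.416 TPM with CS2 (SD, n = 3 each), and MGA, a large MAX partner, 2.56 ± 0.574 TPM with CS1 and 0.573 ± 0.144 TPM with CS2.

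**Figure D3:**
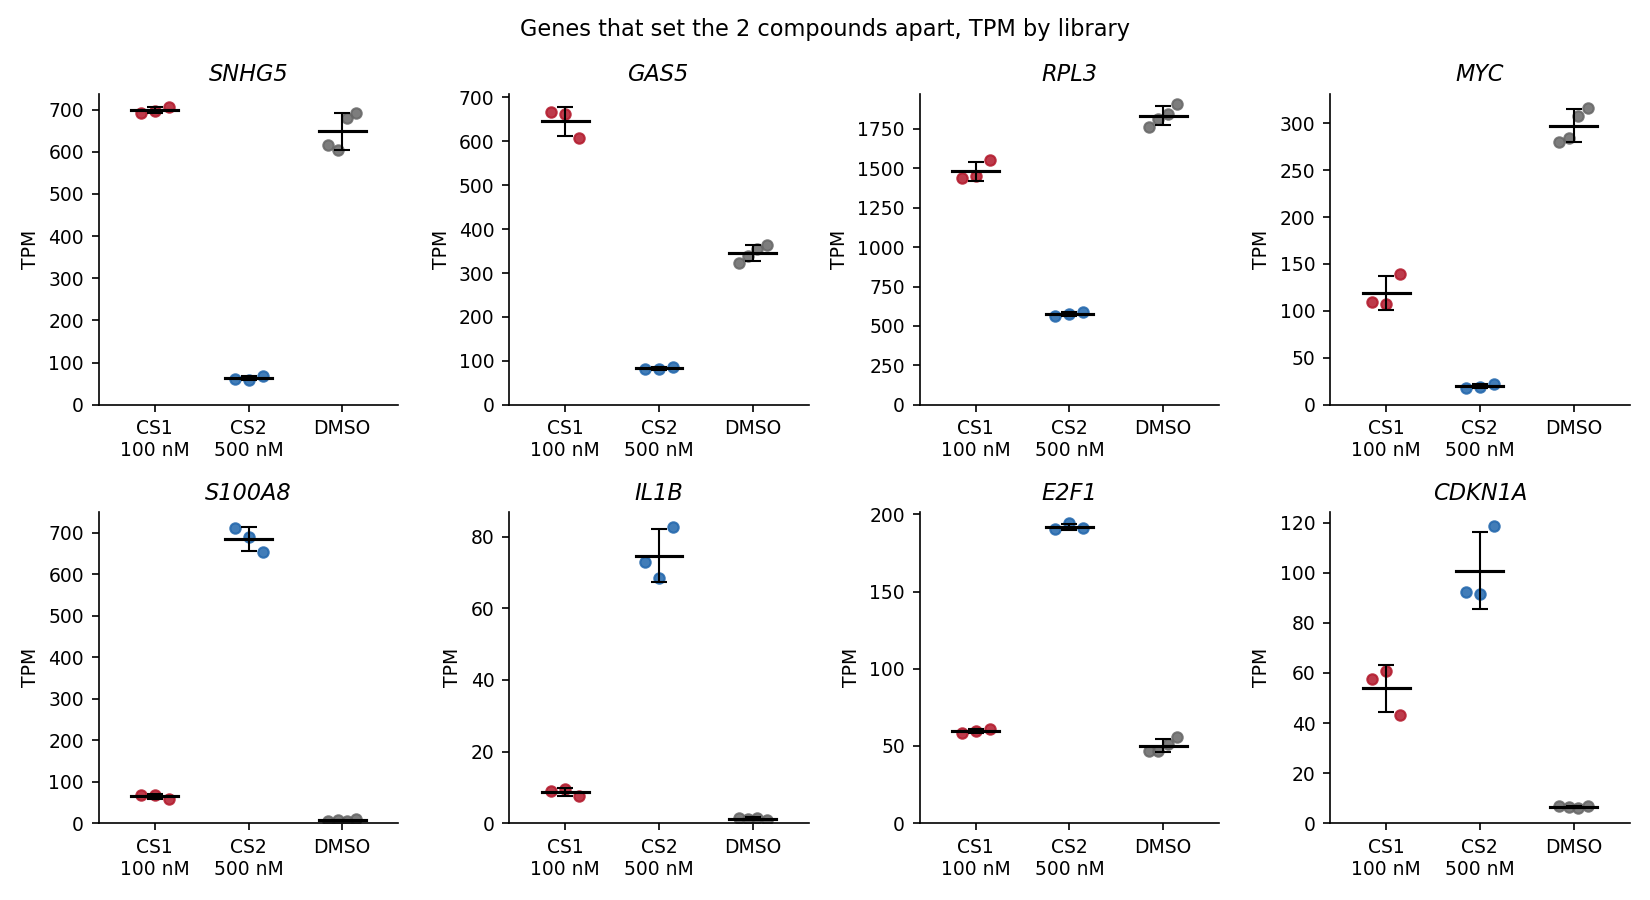
TPM of 8 genes in each library, with axes that start at 0; points are libraries, bars the mean and whiskers 1 SD, for CS1 and CS2 (n = 3 each) and DMSO (n = 4). In the upper row CS2 lies lowest (SNHG5, GAS5, RPL3, MYC), and in the lower row it lies highest (S100A8, IL1B, E2F1, CDKN1A).

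Inflammatory genes were mostly lower with CS1. Of 27 tested cytokine and NF-kB genes, 0 were higher and 23 were lower with CS1, with a median 0.49 below the all-gene median; the count lower was 21 to 22 under the 3 other scalings. IL1B (chr2:112829751-112836903), the secreted interleukin of inflammasome signalling, had 8.88, 9.64 and 7.52 TPM with CS1 and 73.0, 68.4 and 82.8 TPM with CS2, against 0.85 to 1.56 TPM with DMSO. It was 7.83-fold lower with CS1 (log2 difference -2.97, SE 0.177, adjusted p = 1.92e-09), while both compounds lay above solvent. CCL7, a chemokine for monocytes, had 1.54, 2.12 and 1.86 TPM with CS1 and 14.9, 17.6 and 21.0 TPM with CS2. IL1RN, the natural antagonist of the interleukin-1 receptor, differed by -1.69 and TNFAIP6, a matrix protein induced by TNF, by -1.96. Against DMSO, 24 of the 27 were higher with CS1 and 27 were higher with CS2, where 37.5% and 49.5% of all tested genes were.

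S100A8 (chr1:153390032-153391188) and S100A9 form calprotectin, the abundant calcium-binding protein of neutrophils and monocytes. S100A8 had 68.4, 67.8 and 58.5 TPM with CS1 and 712.4, 690.4 and 653.8 TPM with CS2, against 5.39 to 9.13 TPM with DMSO, a difference of -3.38 (SE 0.2, adjusted p = 1.74e-09). S100A9, named after its values were seen, had 424.7, 443.6 and 415.2 TPM with CS1 and 2029, 2018 and 1916 TPM with CS2, against 78.3 to 87.9 TPM with DMSO. For both genes the CS1 libraries lay between the solvent and the CS2 libraries without touching either. MMP8, the neutrophil collagenase, differed by -2.30, S100A12 by -2.38 and CEBPE, a transcription factor of late granulocytes, by -0.99. In the whole list of S100 and granule genes, 6 of 21 were higher (28.6%) and 8 lower (38.1%) with CS1. These shares lay near the 26.2% and 40.4% of all tested genes. The median of the list relative to all genes was 0.09 as deposited and -0.26 after quantile normalization.

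The genes that were farthest lower with CS1 included several that solvent cells scarcely express. AQP9 (chr15:58138169-58185911), a channel for water and glycerol, had 0.72, 0.94 and 0.47 TPM with CS1 and 27.9, 27.3 and 23.8 TPM with CS2, against 0.03 to 0.1 TPM with DMSO, a difference of -4.00 (SE 0.131, adjusted p = 4.7e-12). GZMA, a granule protease, had 1.15, 1.42 and 0.54 TPM with CS1 and 29.2, 28.3 and 14.9 TPM with CS2, and was listed at 0 in the 4 DMSO libraries. AIM2, a sensor of cytosolic DNA, had 7.08, 9.34 and 4.84 TPM with CS1 and 65.2, 61.5 and 53.8 TPM with CS2, and GPR84, a receptor for medium-chain fatty acids, differed by -2.73. HAPLN3, SSH3 and EFCAB12 had 0.50 to 1.24 TPM with CS1 and 14.98 to 20.3 TPM with CS2, against 0.42 to 1.22 TPM with DMSO.

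Of 25 tested monocyte and macrophage markers, 3 were higher and 17 lower with CS1, against 26.2% and 40.4% of all tested genes. The median of the tested markers lay 0.20 below the all-gene median. CD14, FCGR3A, CD163, MRC1, MSR1 and VCAN, also in the list, were too low for the test. Against DMSO, 24 of the 25 tested markers were higher with each compound, where 37.5% of all tested genes were with CS1 and 49.5% with CS2. The summed level went the other way between the compounds. All 31 entries of the list summed to 5335 to 5485 TPM with CS1, 4476 to 4737 TPM with CS2 and 3400 to 3757 TPM with DMSO. FCN1, a lectin of blood monocytes, had 47.3, 48.6 and 53.4 TPM with CS1 and 105.9, 103.6 and 113.95 TPM with CS2, against 32.4 to 36.0 TPM with DMSO. CD68, of macrophage lysosomes, had 232.8, 233.6 and 217.5 TPM with CS1 and 339.7, 316.5 and 363.9 TPM with CS2, against 76.8 to 91.4 TPM with DMSO. CTSD, the lysosomal protease cathepsin D, went the other way and was higher with CS1 by 0.98. The myeloid regulator SPI1 differed by -0.20 and CD33, a surface antigen of myeloid leukaemia, by 0.37.

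Matrix proteases and the plasminogen system were lower with CS1 for 12 of 18 tested genes and higher for 1, and immediate early genes for 16 of 24 and higher for 2. These medians lay 0.45 and 0.32 below the all-gene median. Genes of the BCL2 family and of apoptosis were lower with CS1 for 20 of 31 (64.5%) and higher for 8 (25.8%). The median of that list lay 0.23 below the all-gene median. Of all tested genes 40.4% were lower and 26.2% higher with CS1, so the share of apoptosis genes that were higher lay near that of all genes. In the matrix protease and immediate early lists 66.7% each were lower. BMF, a BH3-only activator of cell death, was higher with CS1, at 28.7, 28.96 and 25.97 TPM against 14.7, 15.5 and 15.9 TPM with CS2 and 9.26 to 10.1 TPM with DMSO.

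**Figure D4:**
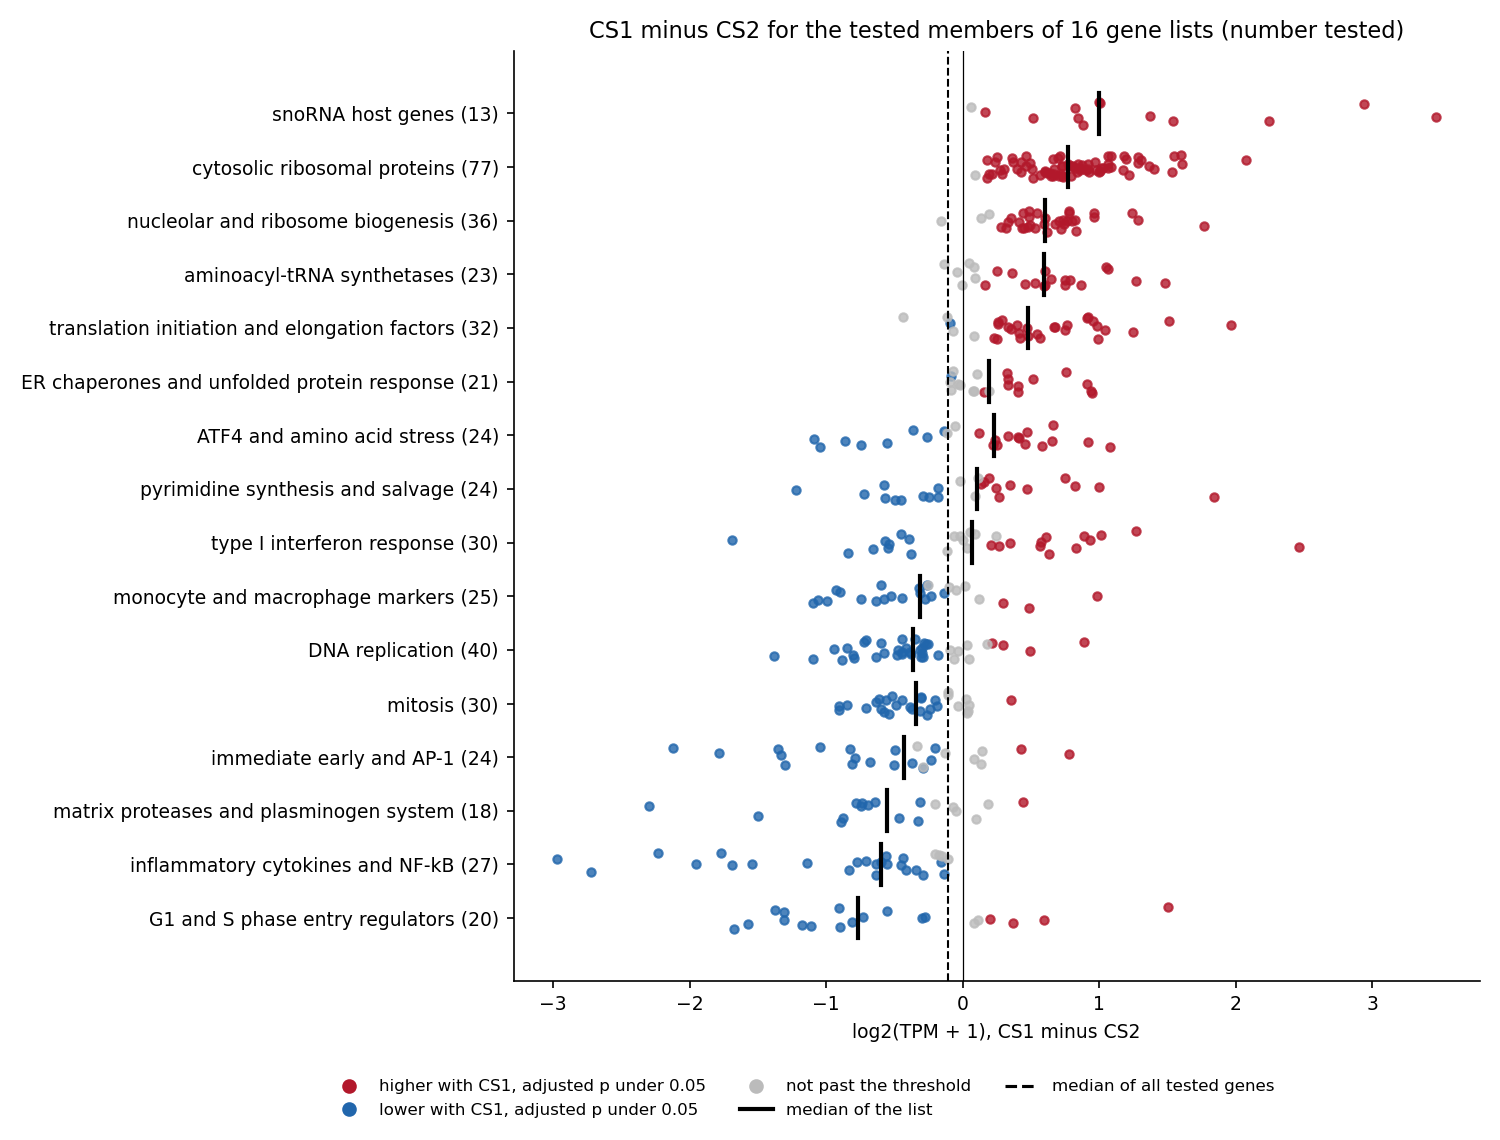
Each point is a tested gene of 1 of 16 lists (number tested in brackets), placed by CS1 minus CS2 on log2(TPM + 1); red and blue genes passed adjusted p under 0.05 (limma), thick bars are list medians and the dashed line the median of all tested genes at -0.11. The medians of the lowest 7 lists lie left of the dashed line and those of the other 9 right of it.

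Genes of the cell cycle were mostly lower with CS1 than with CS2. Of 20 tested regulators of G1 and S phase, 4 were higher and 14 lower with CS1, with a median 0.66 below the all-gene median. E2F1 (chr20:33675683-33686404), a factor that switches on S-phase genes and is named here after its values were seen, had 58.2, 59.5 and 61.0 TPM with CS1 and 190.5, 194.2 and 191.2 TPM with CS2, against 46.8, 47.0, 51.0 and 55.8 TPM with DMSO. The difference was -1.67 (SE 0.0821, adjusted p = 2.53e-10), and the CS1 libraries lay just above those with solvent. Of the 4 CDK inhibitors in that list, 3 were lower with CS1, while CDKN1B, the inhibitor p27, was higher by 0.59 (SE 0.0526, limma, adjusted p = 1.3e-07) and is named after its values were seen. CDKN2D, which blocks CDK4 and CDK6, had 42.4, 46.7 and 38.5 TPM with CS1 and 130.9, 128.7 and 124.8 TPM with CS2, and CDKN2C, of the same family, differed by -1.18. CDKN1A (chr6:36676460-36687339), the p53-induced inhibitor p21, had 57.7, 60.6 and 43.2 TPM with CS1 and 92.3, 91.5 and 118.7 TPM with CS2, against 6.04 to 6.85 TPM with DMSO.

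CDK2, the kinase of S-phase entry, differed by -0.91 and CCNE2, its cyclin partner, by -1.31. CCND2, the cyclin of early G1, was higher with CS1, at 16.3, 15.4 and 18.8 TPM against 5.56, 5.18 and 5.07 TPM with CS2, and both lay under the 32.3 to 36.8 TPM of DMSO libraries. Of 40 DNA replication genes, 4 were higher and 30 lower with CS1, and of 30 mitosis genes 1 was higher and 22 lower. CDC6, which loads the replicative helicase, had 87.3, 88.3 and 80.1 TPM with CS1 and 183.5, 183.6 and 181.6 TPM with CS2, and PRIM2, a primase subunit, differed by -0.94. RFC5 and RFC2, clamp loader subunits, differed by -0.89 and -0.71. AURKB, the kinase of chromosome alignment, had 151.95, 166.3 and 146.9 TPM with CS1 and 285.7, 293.9 and 294.5 TPM with CS2, CDK1 differed by -0.71 and KIF2C, a microtubule depolymerase, by -0.52.

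The windows below, from the same RefSeq table, lie upstream of the annotated starts of cycle genes and are shown because 17 of 34 replication genes with an entry and 5 of 15 G1 and S regulators (33.3%) held an E2F element within their 300 bases, against 5.31% of all tested genes with an entry. The element was searched on both strands as TTTCCCGC, TTTGGCGC, TTTCGCGC or TTTGCCGC, which can overlap each other, and capitals mark the matches. The windows are chr20:33686387-33686416 (minus) for E2F1, chr3:48188443-48188472 (minus) for CDC25A, chr20:5126663-5126692 (minus) for PCNA, chr2:135876511-135876540 (minus) for MCM6, chr19:4909471-4909500 (plus) for UHRF1 and chr11:65261898-65261927 (plus) for POLA2.
E2F1: ggcaaaaaggaTTTGGCGCgtaaaagtggc
CDC25A: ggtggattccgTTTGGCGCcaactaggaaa
PCNA: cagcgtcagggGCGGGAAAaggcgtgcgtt
MCM6: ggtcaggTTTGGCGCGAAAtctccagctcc
UHRF1: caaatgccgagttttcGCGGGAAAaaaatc
POLA2: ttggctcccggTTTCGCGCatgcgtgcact

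All 6 of these genes were lower with CS1, but by unequal amounts, and the last 5 are named for their windows after values were seen. UHRF1, which keeps DNA methylation through replication, had 146.4, 149.8 and 138.7 TPM with CS1 and 381.7, 378.7 and 376.1 TPM with CS2, against 134.4 to 140.5 TPM with DMSO, a difference of -1.38. PCNA, the sliding clamp, differed by -0.85 and CDC25A, the phosphatase that activates CDK2, by -0.73. POLA2, a primase-polymerase subunit, and MCM6, of the replicative helicase, differed by -0.31 and -0.30. Over all genes the element was about as frequent among those lower with CS1 (5.73%) as among those higher (5.17%). Among other lists, 34.4% of replication-dependent histones and 27.3% of snoRNA host genes with an entry held it. Of 38 tested histones 4 were higher and 0 lower with CS1, and of 13 host genes 12 were higher and 0 lower.

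Pyrimidine genes were split. Of 24 genes of pyrimidine synthesis and salvage 11 were higher and 10 lower with CS1, against 26.2% and 40.4% of all genes. DHODH, which is the known target of brequinar and is named here after its values were seen, had 16.4, 15 and 15.8 TPM with CS1 and 7.67, 8.79 and 9.03 TPM with CS2, against 18.8 to 20.8 TPM with DMSO. The difference was 0.82 (SE 0.0773, adjusted p = 2.5e-07) with no overlap. UMPS, the next enzyme of the pathway, went the other way, at 17.6, 17.9 and 17.7 TPM with CS1 and 24.1, 24.7 and 25.2 TPM with CS2, and CAD, which starts the pathway, differed by 0.24.

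Among salvage enzymes, TK1, the thymidine kinase of cycling cells, had 119.8, 117.4 and 121.3 TPM with CS1 and 272.7, 282.7 and 284.97 TPM with CS2, against 83.2 to 86.5 TPM with DMSO, a difference of -1.22. DCK, the deoxycytidine kinase, differed by -0.72. TYMP (chr22:50525752-50530056), which breaks thymidine down, had 13.0, 13.7 and 12.4 TPM with CS1 and 2.58, 3.62 and 2.61 TPM with CS2, a difference of 1.84, and TK2, the mitochondrial thymidine kinase, differed by 0.75. SLC19A1 (chr21:45493572-45544411), the reduced folate carrier, was among the genes farthest higher with CS1, at 33.6, 32.2 and 34.6 TPM against 2.91, 2.85 and 3.45 TPM with CS2 and 32.8 to 35.7 TPM with DMSO. In the purine list 7 of 15 were higher and 4 lower, with PFAS at 1.08 and PRPS1 at -0.79.

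Genes of the ATF4 response, which cells use under amino acid shortage, also divided, with 14 of 24 tested higher and 8 lower with CS1. These shares were 58.3% and 33.3%, against 26.2% and 40.4% of all tested genes. CTH, of cysteine synthesis, had 22.8, 24.9 and 22.3 TPM with CS1 and 11.8, 11.4 and 12.5 TPM with CS2, against 12.7 to 15.2 TPM with DMSO. MTHFD2, of mitochondrial folate metabolism, differed by 0.58 and ATF4 itself by 0.66. DDIT3, the stress factor CHOP, went the other way, with 83.5, 92.2 and 81.4 TPM with CS1 and 166.8, 175.3 and 209.7 TPM with CS2, against 26.1 to 28.6 TPM with DMSO. GDF15, a stress cytokine named after its values were seen, had 21.4, 22.2 and 19.1 TPM with CS1 and 5.79, 5.86 and 10.1 TPM with CS2, against 0.12 to 0.46 TPM with DMSO, so that both compounds lay above solvent.

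Of 21 chaperones and unfolded-protein genes of the endoplasmic reticulum, 11 were higher with CS1 (52.4%) and 1 was lower (4.76%). Among all tested genes 26.2% were higher and 40.4% lower. HSP90B1, the chaperone GRP94, had 550.9, 546.1 and 598.8 TPM with CS1 and 301.05, 294.1 and 281.2 TPM with CS2, against 468.8 to 472.1 TPM with DMSO. HYOU1, an exchange factor for the chaperone BiP, differed by 0.91 and SEL1L, of the degradation complex, by 0.94. The amino acid exporter and importer list had 6 of 17 higher and 6 lower, with the leucine carrier SLC43A1 at 1.203.

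Interferon-response genes differed in both directions, 13 of 30 tested higher and 9 lower with CS1. IFIT2 (chr10:89283694-89309276), which binds foreign RNA, had 30.9, 32.0 and 18.9 TPM with CS1 and 4.35, 3.89 and 3.81 TPM with CS2, against 1.29 to 1.75 TPM with DMSO, a difference of 2.46 (SE 0.151, adjusted p = 2.69e-09). IFIT3, its partner, had 59.05, 59.98 and 43.3 TPM with CS1 and 21.9, 23.2 and 19.9 TPM with CS2, and IFI44 differed by 1.01. In all 3 genes the CS2 libraries lay between solvent and CS1. IFI27 went the other way, at 1.47, 1.26 and 1.37 TPM with CS1 and 6.63, 7.94 and 5.52 TPM with CS2.

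Of 9 tested genes of MHC class I presentation, 2 were higher (22.2%) and 6 lower (66.7%) with CS1, against 26.2% and 40.4% of all tested genes. B2M, the light chain of every class I molecule, had 3534, 3542 and 3271 TPM with CS1 and 5302, 5166 and 4896 TPM with CS2, against 2503 to 2530.2 TPM with DMSO. TAP1, the peptide transporter, differed by -0.64 and PSMB8, an immunoproteasome subunit, by 0.56. Of 10 checkpoint genes 5 were higher and 5 lower: SIRPA, the receptor on phagocytes, differed by 0.55, and its ligand CD47, the signal that blocks phagocytosis, by -0.60.

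Metabolic lists were less uniform. Of 29 cholesterol genes 12 were higher (41.4%) and 10 lower (34.5%) with CS1, against 26.2% and 40.4% of all tested genes. SQLE, an early enzyme of the sterol branch, differed by 0.93 and NPC1, which exports cholesterol from lysosomes, by 0.86. ACAT2, which makes the first intermediate, differed by -0.89. INSIG1, the sterol sensor that holds back that pathway, had 84.9, 79.4 and 69.7 TPM with CS1 and 42.1, 41.6 and 44.5 TPM with CS2, against 471.0 to 523.4 TPM with DMSO. Glycolysis had 6 of 25 higher and 10 lower, shares near the 26.2% and 40.4% of all tested genes. Within that list hexokinase HK2 differed by -0.97 and the glucose carrier SLC2A3 by -0.95. The oxidative phosphorylation list had 16 of 44 in each direction, and 21 of 66 mitochondrial ribosomal proteins were higher and 20 lower. After division by the 75th percentile the mitochondrial ribosomal protein counts were 32 and 13.

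Of 19 antioxidant genes tied to NRF2, 4 were higher (21.1%) and 11 lower (57.9%) with CS1. PRDX1, which removes peroxide, had 535.3, 536.6 and 572.8 TPM with CS1 and 1199, 1224 and 1112 TPM with CS2, against 723.3 to 753.5 TPM with DMSO, so that the compounds lay on opposite sides of solvent. FTL, the light chain of ferritin, differed by -0.62, and by -0.24 with an adjusted p of 0.165 (limma) after quantile normalization. TFRC, the receptor that takes up iron, had 308.9, 307.7 and 279.3 TPM with CS1 and 96.1, 94.6 and 102.4 TPM with CS2, a difference of 1.60, and IREB2, which stabilises its mRNA, differed by 0.86. Of 29 topoisomerase and break repair genes 5 were higher (17.2%) and 15 lower (51.7%), against 26.2% and 40.4% of all tested genes. TOP2A, the topoisomerase of cycling cells, differed by -0.54 and TOP2B by 0.53. In the p53 list, 7 of 26 were higher (26.9%) and 12 lower (46.2%), against 26.2% and 40.4% of all tested genes. Medians relative to all genes were -0.05 for the topoisomerase and repair list and -0.08 for the p53 list. Within the p53 list the repair gene XPC differed by 1.53 and RRM2B, a ribonucleotide reductase subunit, by -0.78.

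**Figure D5:**
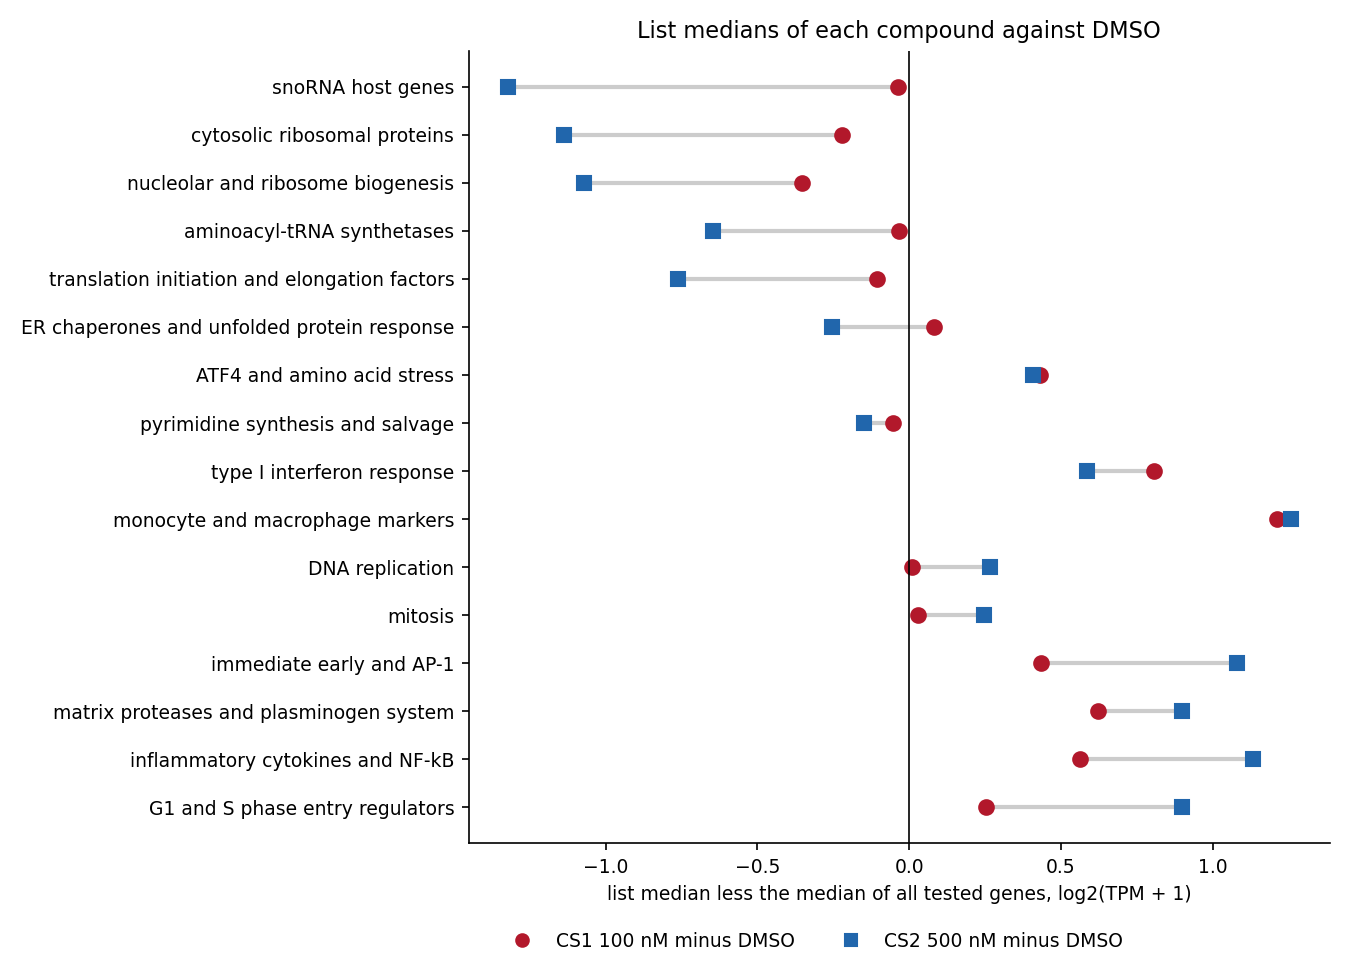
For 16 gene lists, the list median of log2(TPM + 1) against DMSO less the median of all tested genes, with CS1 as red circles and CS2 as blue squares. CS2 lies farther from zero than CS1 for the first 5 lists, from snoRNA host genes at -1.32 with CS2 and -0.04 with CS1, while monocyte and macrophage markers stand at 1.21 with CS1 and 1.26 with CS2; both series share the DMSO libraries.

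Of 19 tested genes that write, erase or read m6A, 2 were higher (10.5%) and 10 lower (52.6%) with CS1, against 26.2% and 40.4% of all tested genes. The median of the list lay 0.01 below that of all genes. ALKBH5, the other known demethylase, had 80.6, 81.2 and 79.9 TPM with CS1 and 113.5, 111.5 and 103.8 TPM with CS2, against 80.9 to 85.5 TPM with DMSO. WTAP, of the methyltransferase complex, differed by -0.30 and RBM15B, which guides that complex, by 0.39. Among 6 genes that earlier work ties to FTO in leukaemia, MYC is given above. CEBPA, a myeloid transcription factor, had 252.1, 243.4 and 267.3 TPM with CS1 and 181.9, 187.7 and 189.0 TPM with CS2, against 297.3 to 309.96 TPM with DMSO, and LDHB, a lactate dehydrogenase, differed by 0.38. ASB2 and RARA, known as genes that FTO holds down, differed by -0.73 and -0.55, and both lay above DMSO with each compound. PFKP, the platelet phosphofructokinase, had 131.5 to 133.9 TPM with CS1 and 133.5 to 136.0 TPM with CS2, overlapping groups with a 95% interval of -0.09 to 0.05. It passed as higher with CS1 under 2 of the 3 other scalings, at 0.09 after quantile normalization (limma, adjusted p = 0.0133) and at 0.08 after upper-quartile scaling (limma, adjusted p = 0.0485).

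Among 23 tested HOX and self-renewal genes, 9 were higher (39.1%) and 7 lower (30.4%) with CS1, against 26.2% and 40.4% of all tested genes. MEN1 (chr11:64803510-64811294), whose protein menin tethers MLL complexes, had 19.8, 20.8 and 21.4 TPM with CS1 and 6.96, 7.12 and 6.37 TPM with CS2, against 23.8 to 24.6 TPM with DMSO, a difference of 1.47 (SE 0.0614, adjusted p = 4.77e-11). BMI1, a Polycomb protein, had 259.7, 247.8 and 238.2 TPM with CS1 and 95.4, 90.4 and 79.1 TPM with CS2, against 361.7 to 415.9 TPM with DMSO. RUNX1, a transcription factor of blood formation, went the other way at -0.91.

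Some genes lay on opposite sides of solvent. C5, the complement component, had 14.5, 15.8 and 10.7 TPM with CS1 and 0.49, 0.57 and 0.53 TPM with CS2, against 4.66 to 7.02 TPM with DMSO. HINT2, a mitochondrial nucleotide hydrolase, had 66.7, 65.0 and 63.3 TPM with CS1 and 8.20, 9.23 and 11.4 TPM with CS2 around 33.9 to 42.8 TPM with DMSO, and MS4A3, of granulocyte precursors, differed by 2.23. C2orf48 (chr2:10141382-10211725) lay the other way round, with 12.7, 13.5 and 12.4 TPM with CS1 and 75.1, 82.4 and 80.3 TPM with CS2, against 21.4 to 27.3 TPM with DMSO. NMB, the peptide neuromedin B, had 15.9 to 16.9 TPM with CS1 and 63.0 to 69.7 TPM with CS2, against 20.6 to 22.1 TPM with DMSO. FBXO4, a substrate receptor of a ubiquitin ligase, was at solvent level with CS1, 37.6 to 38.1 TPM, and at 4.57 to 5.05 TPM with CS2.

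Other genes differed from solvent in the same direction with both compounds, and were chosen for an interval of the difference between compounds within 0.5 of zero, which does not show that the compounds act alike. PLIN2, which coats lipid droplets, had 263.1, 271.9 and 174.9 TPM with CS1 and 247.0, 245.6 and 240.6 TPM with CS2, against 45.3 to 47.5 TPM with DMSO, and its interval was -0.35 to 0.21. ITGAL, the alpha chain of the integrin LFA-1, had 61.8 to 80.5 TPM with CS1, 56.3 to 62.9 TPM with CS2 and 13.0 to 14.8 TPM with DMSO, and it passed the test as higher with CS1 by 0.27 (95% interval 0.10 to 0.44, limma, adjusted p = 0.00777). CLEC5A, a myeloid lectin receptor, had 62.9 to 71.2 TPM with CS1, 52.97 to 61.5 TPM with CS2 and 13.8 to 16.5 TPM with DMSO. Its difference of 0.21 did not pass (adjusted p = 0.109) but did under 5 alternatives, among them the 3 other scalings. Below solvent, ELANE, the protease of promyelocyte granules, had 200.04, 188.6 and 269.0 TPM with CS1 and 204.3, 214.3 and 252.4 TPM with CS2 against 457.6 to 553.8 TPM with DMSO. SREBF1, which drives lipid synthesis, had 17.7 to 21.0 TPM with CS1, 19.1 to 26.9 TPM with CS2 and 51.2 to 57.6 TPM with DMSO.

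The hairpin libraries are separate from those with compounds. FTO was 7.99 ± 0.445 TPM with shFTO and 31.6 ± 1.03 TPM with shNS (SD, n = 3 each), a difference of -1.86 (SE 0.0597, limma, adjusted p = 7.38e-12), while it did not differ detectably between the compounds. Across 14951 genes the difference CS1 minus CS2 correlated with shFTO minus shNS at r = -0.115, a description over genes that are not independent. Of the genes lower with CS1 than with CS2, 2149 (35.5%) were higher and 1407 (23.3%) lower with shFTO than with shNS. Of the genes higher with CS1, 1215 (31%) were higher and 1340 (34.2%) lower with shFTO, where 31.9% of all tested genes were higher and 24.5% lower. Seen from the hairpin, the 4776 genes higher with shFTO held 45% that were lower and 25.4% that were higher with CS1, and the 3661 lower with shFTO held 38.4% and 36.6%, against 40.4% and 26.2% of all genes. IL1B had 9.55 ± 3.25 TPM with shFTO and 2.26 ± 0.321 TPM with shNS, and MYC 159 ± 44.2 TPM with shFTO and 285 ± 3.4 TPM with shNS. SNHG5, so far apart between the compounds, had 904 ± 70.9 TPM with shFTO and 840.5 ± 5.96 TPM with shNS, a difference of 0.10 (limma, adjusted p = 0.19).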

How the data were processed

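RNA enriched for poly(A) was sequenced from NOMO-1 cells, and the deposited table holds 1 column of TPM per library, made by the authors; the submitters' processing notes name RSEM 1.2.31 and GRCh38, but neither the aligner nor the annotation appears in the sources used here. That the deposited values are TPM was read from their sums and decimals. Reads per gene cannot be had from TPM: sequencing depth is therefore unknown here, and intervals cover the spread between libraries only. All 16 columns were matched to samples by name, and 0 pairs were identical.

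Of 26830 entries, those reaching 1 TPM in 3 or more libraries (14951) entered the test, on log2(TPM + 1) with limma 3.58.1 (R 4.3.3; lmFit, eBayes with a mean-variance trend, 1 mean per group over 16 libraries, no replicate term, 11 residual degrees of freedom), two-sided, with Benjamini-Hochberg adjustment over all tested genes and a threshold of 0.05. The script was tested on simulated data. Python 3.11.15 (numpy, pandas, scipy, matplotlib) gave the sums, motif counts and figures. Coordinates come from GENCODE symbols on GRCh38, and promoter windows, found for 10894 tested entries, from RefSeq.

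Gene lists and members were chosen with earlier results of these data known, so counts and medians of lists are descriptions, without set tests. Genes named are FTO, the 12 largest differences each way without overlap of the groups and with at least 5 TPM, up to 4 members of a list with the smallest adjusted p, genes on opposite sides of DMSO, and genes alike with both compounds, 5 each way; not all are printed. S100A9, E2F1, CCNE2, UHRF1, CDKN1A, CDKN1B, CDC25A, PCNA, MCM6, POLA2, DHODH, UMPS, CAD, GDF15, INSIG1, TOP2A, TOP2B, SNHG1 and NKG7 were named after values were seen. Some items are not reported here. Where the notes do not say that replicates were separate cultures, p-values measure only the spread between these libraries. Mitochondrial genes as such were not analysed here.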

Additional observations from a re-analysis of the deposited data

Results flagged for a closer look

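Among groups of 4 libraries, only DMSO could be looked at for a single library that stands apart, over 135 printed values; chance alone gives about 1 in 20, and 2 were found. HK2 in 1 DMSO library lay apart from the other 3, at 55.9 TPM against 54.5 to 54.6 TPM (gap over range 0.93). The mitochondrial-like share was 8.39% of TPM in 1 DMSO library and 8.04 to 8.10% in the others (gap over range 0.8294). The CS1 minus CS2 differences of these values use no DMSO mean.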

How the results depend on the processing

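The counts of genes higher and lower with CS1 stayed within 1.5 times the reported ones under every alternative run. Leaving out each CS1 or CS2 library in turn gave 3598 to 3884 higher and 5321 to 6266 lower. Quantile normalization gave 4590 higher and 5123 lower, and rescaling without ribosomal and mitochondrial-like entries 4538 and 5091. Leaving out small RNA entries, an alternative chosen after seeing the data, gave 3878 and 6084. In the 6 libraries alone the counts were 3657 and 5518, and with replicate number as a block there they were 3926 and 6127. Same-numbered CS1 and CS2 libraries deviated together at r = 0.0853, 0.113 and 0.219, and pairs with unlike numbers at -0.179 to 0.0899. CS2 replicate 1 correlated best with CS1 replicate 2 (0.0899). The labels do not say that equal numbers were paired, so the main fit has no block. Whether same-numbered libraries share an effect was not tested.

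Of 132 printed genes, 125 kept direction and call under the alternatives run. Values near zero changed sign. FTO was 0.0958, 0.0754 and 0.0662 under upper-quartile scaling, quantile normalization and rescaling, and -0.0441 to 0.0521 without 1 library; PFKP was 0.0839, 0.0903 and 0.0530 under those scalings. PLIN2 was 0.0307 and 0.00560 under upper-quartile scaling and quantile normalization, and -0.187 to 0.130 without 1 library, the highest without CS1 replicate 3. ELANE was 0.0636, 0.0317 and 0.0326 under the 3 scalings and -0.196 to 0.0585 without 1 library. CLEC5A passed the threshold under the 3 scalings (0.28 to 0.31), in the 6 libraries alone and with the block (0.21 in both), and ITGAL missed it in the 6 libraries alone (adjusted p = 0.0523). The ribosomal RNA share, -0.587 points CS1 minus CS2 (exact permutation p = 0.6), ran from -1.037 to 0.02675 when 1 library was left out, the highest without CS2 replicate 3. The cause of these changes was not tested. Depth is unknown, so no limit for entries listed at 0 can be given.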
